A study of Solanum lycopersicum with 29 samples.

Results

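Anther gene expression of the low-SA tomato line 35S:nahG was compared with that of the wild type (WT) after long-term mild heat (LTMH). The comparison rested on 6 of the 29 libraries of the series, 3 of each line (replicates 2, 3 and 4), and on the 21098 of 35092 listed genes that passed the filter for low counts. Plants of both lines were grown as cv. Micro-Tom. For LTMH they were moved at flowering to 34°C by day, 28°C by night and 68% relative humidity (RH), and anthers at the polarized microspore stage were collected after 8 days, with 6 anthers pooled per replicate. The 8 libraries of the same lines kept at control temperature (CT, 25°C by day, 19°C by night and 50% RH, 4 libraries per line) were set beside them. In 35S:nahG the bacterial nahG gene is driven by the constitutive 35S promoter and not by one of the anther. A single transgenic line, brought into Micro-Tom by introgression, was used. The effect of the transgene and that of chromosome segments carried along with it cannot be told apart in these libraries, and the nahG transcript itself was not analysed here.

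SA is a phenolic hormone best known from defence against pathogens that feed on living tissue. It acts through NPR1 (also called NIM1), a coactivator that turns on defence genes, and NIMIN proteins bind NPR1 and temper its activity. The nahG enzyme, a salicylate hydroxylase, converts SA to catechol and thereby keeps SA low. Anthers hold the tapetum, which feeds the microspores and lays down pollen wall material, and a wall that is green and photosynthetic for much of development. At the polarized stage the microspores have a displaced nucleus and are about to divide.

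The 6 LTMH libraries held from 33425676 to 35478012 counted reads, and the 10 most abundant genes took from 6.81% to 8.73% of them. Correlations of log2(CPM + 1), where CPM is a gene's reads scaled to a common library size by TMM, ranged from 0.992 to 0.996 between libraries of the same line and from 0.976 to 0.982 between lines. The anther label was checked against markers. The summed level of 14 tapetum genes ranged from 359 to 958 CPM in WT LTMH and from 366 to 736 CPM in 35S:nahG LTMH, so that the lines overlapped. Of the 11 of these genes tested, 3 were called lower in LTMH and none higher, with a median log2 fold change of −2.48. In CT the same sum was 2017 to 11341 CPM in WT and 16411 to 23766 CPM in 35S:nahG, with 9 of the 11 called higher and none lower. The 17 microspore and pollen genes summed to 266 to 355 CPM in WT LTMH and to 258 to 291 CPM in 35S:nahG LTMH, again overlapping, and none of the 12 tested was called. In CT they summed to 338 to 402 CPM in WT and to 195 to 291 CPM in 35S:nahG, without overlap, with 1 called higher and 4 lower. The 3 RBCS genes, taken as markers of green tissue, summed to 1368 to 1695 CPM in WT LTMH and to 2100 to 2150 CPM in 35S:nahG LTMH, without overlap. In such bulk samples, fewer cells of a type and less RNA per cell cannot be told apart.

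Across all tested genes the lines were close in LTMH, with a median log2 fold change (35S:nahG over WT) of −0.0043 and a median absolute log2 fold change of 0.193. Against this, 980 genes (4.64% of those tested) were higher and 1036 genes (4.91%) were lower in 35S:nahG, a gene being called a DEG where it changed 1.5-fold or more with an adjusted p-value under 0.05 by edgeR. Together these were 9.56% of the tested genes. The higher DEGs had a median log2 fold change of 1.01 and the lower DEGs one of −1.20. A change of at least 4-fold was found in 188 higher and 333 lower DEGs, and one of at least 32-fold in 48 and 124. In all but 4 of the higher and 10 of the lower DEGs, every library of a line lay on the same side of every library of the other line. With 3 libraries per line the rule for a DEG mostly requires such separation. This count therefore adds no evidence of its own, and its share over all tested genes was not counted. A further 3363 genes passed on the adjusted p-value alone and differed by less than 1.5-fold. In what follows, levels in single libraries are given in the order of replicates 2, 3 and 4, levels after ± are SDs (n = 3 in LTMH, n = 4 in CT), and the SE is that of the fitted log2 fold change (35S:nahG over WT).

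**Figure D1:**
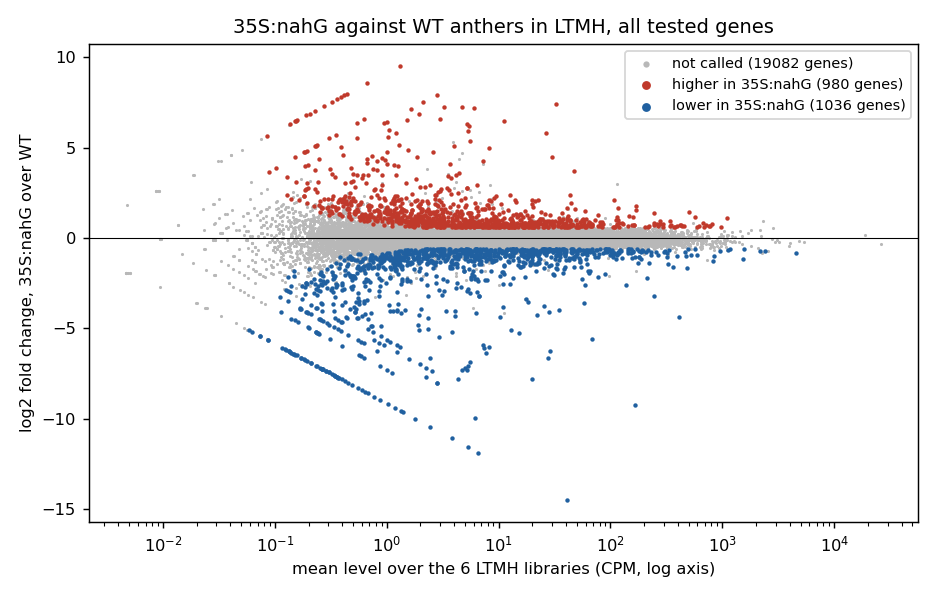
Log2 fold change of 35S:nahG over WT in LTMH (vertical axis) against the mean level over the 6 LTMH libraries in CPM (horizontal log axis), 1 point per tested gene, with the 980 higher and 1036 lower DEGs coloured. DEGs spread over the range from about 0.1 CPM upwards, and the lowest point is the SRR1-domain gene Solyc06g005930 at a log2 fold change of −14.50.

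Low expressed genes made up much of these numbers. Of the 3010 genes with a mean under 1 CPM, 16.08% were DEGs, and of the 5914 genes from 1 to 10 CPM 14.9% were, against 5.12% of the 10124 genes from 10 to 100 CPM and 6.34% of the 2050 genes above 100 CPM. The median absolute log2 fold change of the DEGs in these classes was 2.55, 1.04, 0.78 and 0.78. The share of genes with an adjusted p-value under 0.05, whatever their fold change, rose with level instead. From the lowest class to the highest it was 16.08%, 19.58%, 29.12% and 38.49%. The larger share of DEGs among low expressed genes therefore depends on the 1.5-fold threshold. It does not show that such genes differed between the lines more often. In summed mean CPM, the higher DEGs went from 19735.9 in WT to 35693.3 in 35S:nahG, and the lower DEGs from 55291.5 to 28586.5. The direction of these sums follows from how the DEGs were chosen. Genes without a Solyc number, listed as annotated non-coding RNA genes, were called more often than the rest, with 4 higher and 27 lower of 142 tested (21.8%, median −0.40), beside 9.47% of the Solyc genes (median −0.00313). This difference in shares was not tested, and libraries made from poly-A RNA count such genes only in part.

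Many DEGs were close to absent in one of the lines. In 35S:nahG LTMH, 162 lower DEGs had at most 3 reads in each library, and 79 of these had at most 3 reads in each of the 7 libraries of the line, CT included. In WT LTMH, 62 higher DEGs had at most 3 reads in each library, and 41 of them in all 7 WT libraries. In CT, 86 of the 162 were called lower and 46 of the 62 higher.

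The largest of these differences was in an SRR1-domain gene (Solyc06g005930), a domain named after a protein of light and clock signalling in Arabidopsis. It was read at 119, 53.5 and 73.2 CPM in the WT libraries and had no read in any 35S:nahG library. Against a floor of 3 reads its level in 35S:nahG was at least 995-fold lower (edgeR adjusted p = 0.000428), and 13 of the 20 tested genes in its stretch of chromosome 6 were DEGs. The ROC5-like gene Solyc06g035940, described as a homeobox-leucine zipper protein of the class that acts in the outermost cell layer, was abundant in WT and nearly silent in 35S:nahG. It had 326, 319 and 352 CPM in WT compared with 0.675, 0.388 and 0.574 CPM in 35S:nahG (log2 difference −9.24 ± 0.13 SE, edgeR adjusted p = 1.47e-07), a 604-fold difference. Neither gene overlapped between the lines, and both were lower in CT as well.

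Further genes of this kind were a zinc finger protein gene (Solyc12g044440), with 12.0, 10.6 and 9.21 CPM in WT, no read in 35S:nahG and thus at least a 129-fold difference, and a gene with a tyrosine kinase domain (Solyc02g079550). The latter had 69.5, 49.9 and 44.9 CPM in WT compared with 0.519, 0.499 and 0.631 CPM in 35S:nahG (log2 difference −6.63 ± 0.23 SE, edgeR adjusted p = 1.11e-05). A gene with the ADH_N domain of alcohol dehydrogenases (Solyc04g074540) was 47.8-fold lower, at 155, 140.4 and 104.9 CPM against 3.43, 2.30 and 2.61 CPM. A yippee-like gene (Solyc03g096260) was 82.1-fold lower, at 15.3 ± 1.98 against 0.188 ± 0.148 CPM. For all 4 the libraries of the lines stood apart and the difference was called in the same direction in CT.

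The LEA5-type gene Solyc09g075210 on chromosome 9 carried far more reads. Late embryogenesis abundant (LEA) proteins are known to protect cell contents against water loss. It had 1150.1, 651 and 566 CPM in WT compared with 39.6, 41.8 and 31.6 CPM in 35S:nahG (log2 difference −4.39 ± 0.29 SE, edgeR adjusted p = 0.000117), with the WT libraries uneven and all far above those of 35S:nahG. The other LEA5-type gene, Solyc06g009140 on chromosome 6, went the other way, from 1.69, 1.05 and 1.20 CPM in WT to 8.90, 2.86 and 10.5 CPM in 35S:nahG (log2 difference 2.50 ± 0.47 SE, edgeR adjusted p = 0.00895). The latter did not pass in CT (log2 fold change 0.14), and its line difference was larger in LTMH (interaction 2.36, edgeR adjusted p = 0.00948).

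Among genes higher in 35S:nahG, a purple acid phosphatase gene (Solyc07g008560), of a family that releases phosphate from organic compounds, was read at 2.53, 2.32 and 2.99 CPM in WT compared with 59.5, 57.1 and 56.0 CPM in 35S:nahG, 21.96-fold higher (log2 difference 4.46 ± 0.09 SE, edgeR adjusted p = 7.31e-07). A sesquiterpene synthase gene (Solyc12g006570), whose enzyme class makes volatile defence compounds, was 55.9-fold higher. Its levels were 0.724, 0.481 and 1.58 CPM in WT compared with 36.0, 42.4 and 77.8 CPM in 35S:nahG (log2 difference 5.80 ± 0.45 SE, edgeR adjusted p = 0.000233), apart by far although the 35S:nahG libraries varied. In CT this gene was read at 0.683 ± 0.507 CPM in WT compared with 1.61 ± 0.597 CPM in 35S:nahG and was not called, and the difference between the temperatures passed its own test (interaction 4.57, edgeR adjusted p = 0.00164).

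Low or undetected in WT were also a gene of the YODA type of MAP kinase kinase kinases (Solyc09g047920), with 7.06, 5.88 and 6.48 CPM in 35S:nahG, at least 73.7-fold higher, and a gene with the Arf domain of small GTPases that act in vesicle traffic (Solyc04g025560). The Arf-domain gene had 0.272, 0.0849 and 0.147 CPM in WT compared with 10.02, 10.2 and 11.04 CPM in 35S:nahG (log2 difference 5.94 ± 0.26 SE, edgeR adjusted p = 2.04e-05). A sulfotransferase gene (Solyc11g027800), listed by the study among brassinosteroid metabolism genes, had no read in WT LTMH and 1.89, 2.86 and 3.07 CPM in 35S:nahG, at least 29.7-fold higher. These 3 differences had the same direction in CT. The YODA-type gene lies in the dense stretch of chromosome 9 described below, in a window of 20 tested genes with 8 DEGs.

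**Figure D2:**
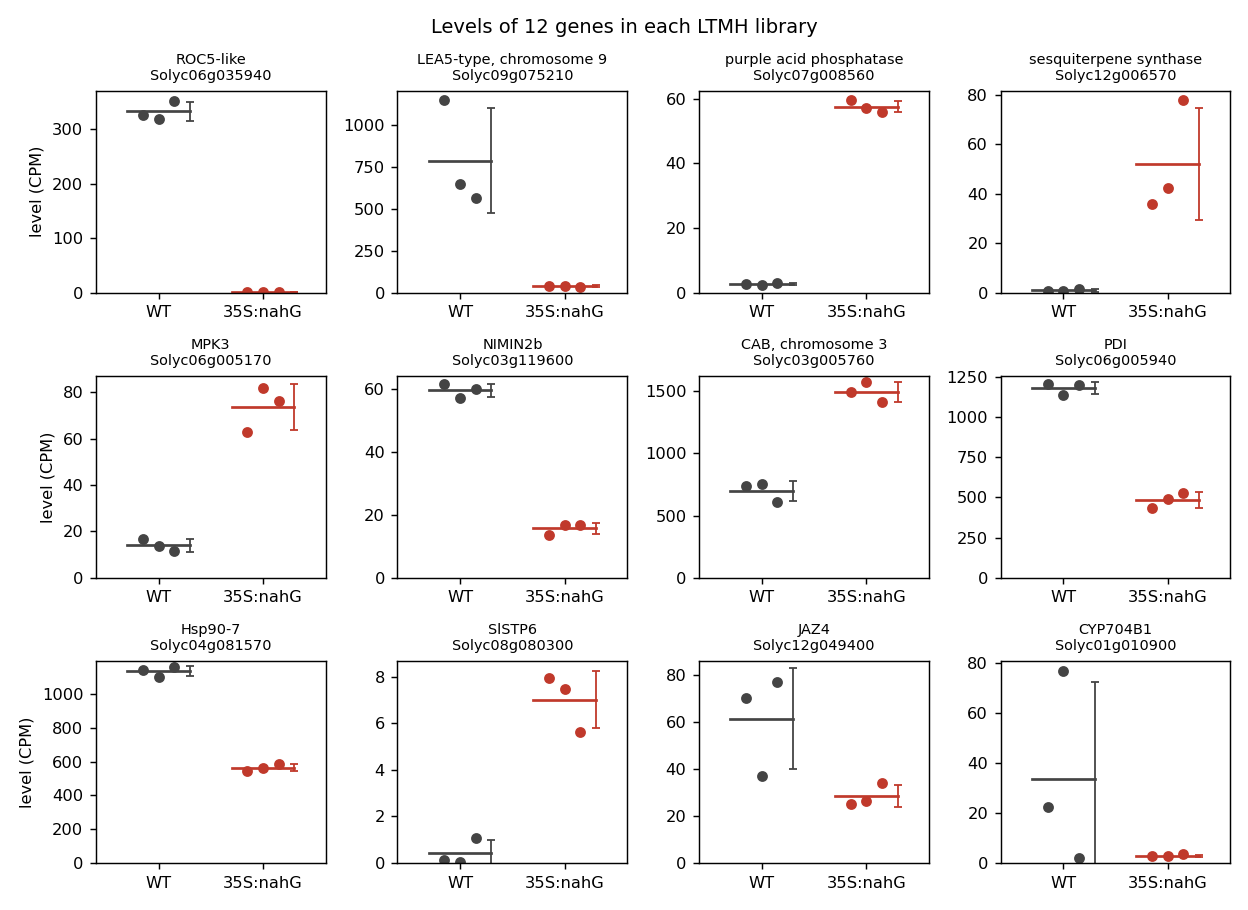
Level in CPM (vertical axis, linear, from 0) of 12 genes in each LTMH library, 3 points per line, with the mean as a horizontal line and the SD over 3 libraries as a bar beside it, cut off at 0 for SlSTP6 and CYP704B1. In 11 of the 12 genes the points of the lines do not overlap, while for CYP704B1 a WT library at 1.91 CPM lies below the 35S:nahG libraries.

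DEGs were not spread evenly along the chromosomes. On chromosome 9, 275 of 1505 tested genes (18.3%) were DEGs, against 6.15% (chromosome 11) to 11.7% (chromosome 6) on the others of chromosomes 1 to 12. In windows of 20 tested genes taken in the order of Solyc numbers, the median number of DEGs was 1 and the maximum 13, and 25 of the 1042 windows held 8 or more. Of these 25 windows, 13 lay on chromosome 9 and 4 at the start of chromosome 6 (Solyc06g005000 to Solyc06g006100). They held 243 DEGs, of which 179 differed in the same direction in CT.

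The densest stretch ran from Solyc09g015000 to Solyc09g065260, with ends set after its values had been seen. Of its 360 tested genes, 149 (41.4%) were DEGs, 43 higher and 106 lower in 35S:nahG, and 127 of these differed in the same way in CT. In the rest of chromosome 9, 11% of the genes were DEGs. The stretch held 48 of the 162 lower DEGs with at most 3 reads in each 35S:nahG LTMH library. Outside it, 937 genes were higher and 930 lower (9% of the genes tested there). In what follows, the number of DEGs in the window of 20 around a gene is given where it reached 8.

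**Figure D3:**
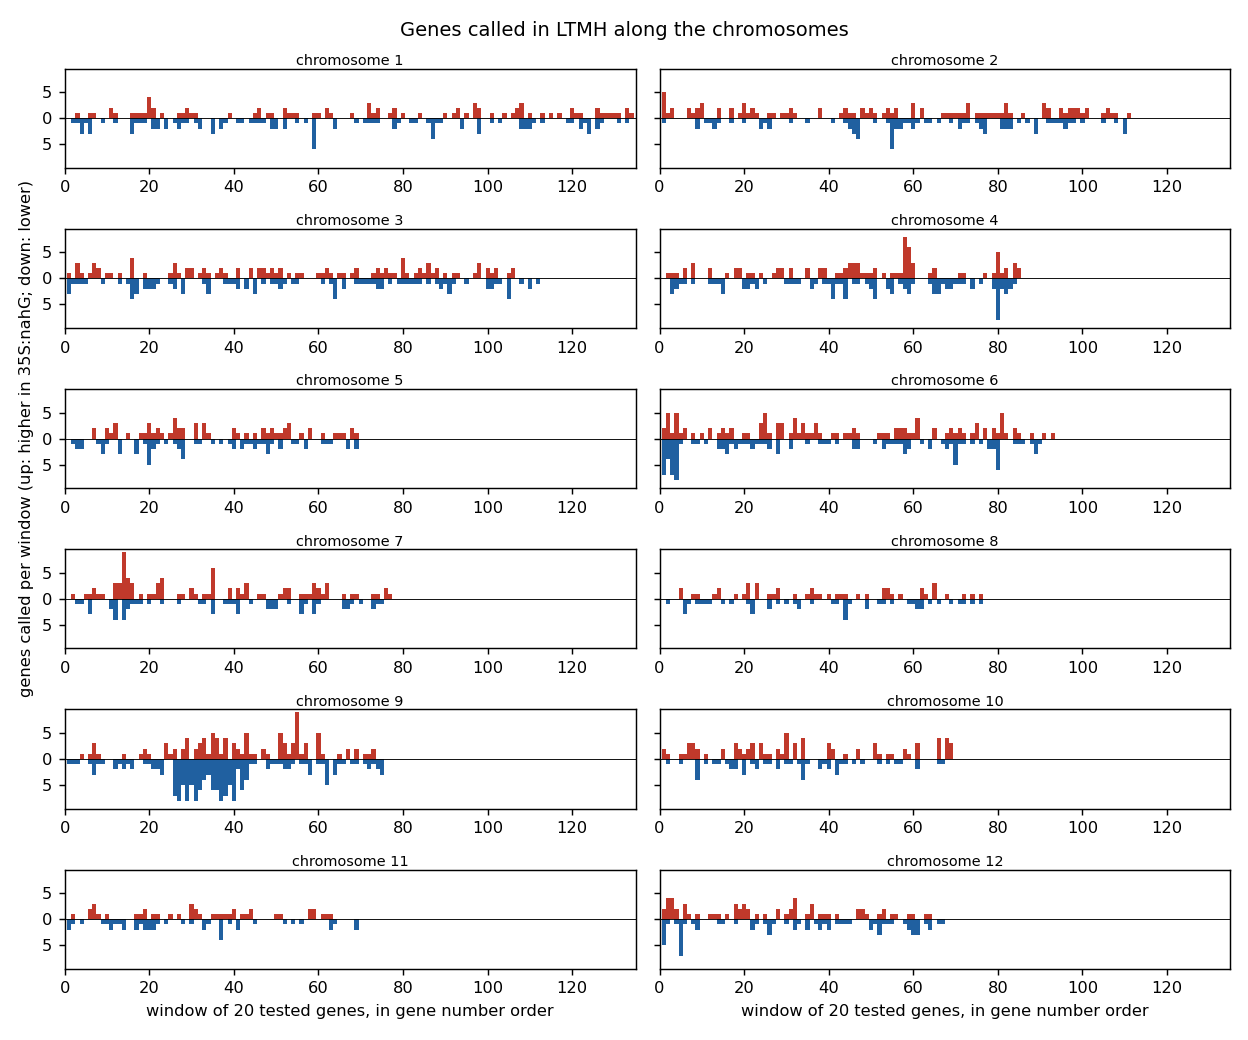
Number of DEGs in LTMH in each window of 20 neighbouring tested genes (vertical axis; higher in 35S:nahG upwards, lower downwards) by the order of the windows on chromosomes 1 to 12 (horizontal axis). Chromosome 9 shows a run of dense windows dominated by lower genes, and the first 4 windows of chromosome 6 hold 8 to 13 DEGs each.

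The genes described next were chosen singly for known roles in SA signalling and defence, and the study's SA gene lists were not analysed here, so no statement on SA genes as a group is made. They were taken from genes that the study named or had picked as differing between these lines. Their calls and directions are therefore not independent evidence. NIMIN2b (Solyc03g119600), of the family that binds NPR1, had 61.5, 57.3 and 59.97 CPM in WT compared with 13.8, 16.8 and 16.7 CPM in 35S:nahG (log2 difference −1.92 ± 0.08 SE, edgeR adjusted p = 1.9e-05). It was also lower in CT, and by less (log2 fold change −0.87, interaction −1.05, edgeR adjusted p = 9.29e-05). A second gene described as NIM1-INTERACTING 2-like (Solyc04g007140) was scarce in WT at 0.784, 0.679 and 0.763 CPM and had no read in 35S:nahG LTMH, at least 9.01-fold lower. The lines did not overlap in either gene.

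WRKY proteins are transcription factors, many of which act in defence. WRKY44 (Solyc10g084380) was 3.66-fold lower in 35S:nahG, at 16.7, 19.3 and 15.3 CPM in WT against 4.15, 4.91 and 4.96 CPM (log2 difference −1.87 ± 0.12 SE, edgeR adjusted p = 0.000101). In CT it did not pass (log2 fold change −0.15, interaction −1.72, edgeR adjusted p = 0.00024). WRKY81 (Solyc09g015770) was 10.5-fold lower at 31.8 ± 2.02 against 3.05 ± 0.588 CPM, and about as much lower in CT (log2 fold change −3.58). It lies in the chromosome 9 stretch, in a window with 8 DEGs.

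EIX1 (Solyc07g008620) and EIX2 (Solyc07g008630) are neighbouring receptor-like proteins that bind the fungal elicitor xylanase. EIX1 had 18.7, 16.8 and 14.8 CPM in WT compared with 2.83, 2.77 and 6.39 CPM in 35S:nahG (log2 difference −2.07 ± 0.31 SE, edgeR adjusted p = 0.00335). EIX2 had 2.50, 2.58 and 2.26 CPM in WT and at most 3 reads in any 35S:nahG library, at least 29.7-fold lower. Both genes were lower in CT too. They are close copies of each other, so that reads may have been divided between them or left out in counting, and their window on chromosome 7, which also holds the purple acid phosphatase gene above, had 13 DEGs.

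MPK3 (Solyc06g005170), a MAP kinase of immune and stress signalling, was higher in 35S:nahG in LTMH. Its libraries stood at 16.95, 13.8 and 11.4 CPM in WT compared with 63.0, 82.1 and 76.1 CPM in 35S:nahG, 5.25-fold higher (log2 difference 2.39 ± 0.15 SE, edgeR adjusted p = 0.000101). In CT it was read at 22.1 ± 2.84 CPM in WT compared with 18.8 ± 14.9 CPM in 35S:nahG (log2 fold change −0.23, edgeR adjusted p = 0.697), and the difference between the temperatures was itself significant (interaction 2.62, edgeR adjusted p = 0.00602). Its window at the start of chromosome 6 held 9 DEGs. Chalcone synthase 1 (Solyc09g091510), the entry step of flavonoid synthesis, was lower at 116, 132 and 164 CPM in WT against 74.95, 80.0 and 65.4 CPM (log2 difference −0.91 ± 0.13 SE, edgeR adjusted p = 0.00294), and more so in CT (log2 fold change −2.27, interaction 1.36, edgeR adjusted p = 0.00129).

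Genes of the photosynthetic apparatus were higher in 35S:nahG. Of the DEGs described as chlorophyll a-b binding proteins (CAB), which hold the light harvesting pigments, all 13 were higher in 35S:nahG (log2 fold changes from 0.60 to 2.75). Their sum was 2022 to 2455 CPM in the WT LTMH libraries and 4336 to 4726 CPM in 35S:nahG LTMH. In CT, where 5 of the 13 were called higher, the sums were 5157 to 5816 CPM and 7141 to 8205 CPM. For 12 of the 13 the line difference was not the same at both temperatures by the interaction test, which 18.3% of all tested genes passed. The 13 were chosen as DEGs in LTMH, which favours passing this test, so that count is not independent evidence. All 11 DEGs described with a photosystem were higher as well (0.64 to 1.23), and of 44 DEGs described as chloroplastic, 41 were higher, the groups sharing some genes. Descriptions were held only for genes that the study had picked as differing between these lines, so that these counts are not independent evidence of direction. The summed RBCS genes, the markers of green tissue, moved with them, and the part of green tissue in these results was not tested.

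The libraries of abundant CAB genes stood well apart. Solyc03g005760 had 735, 755 and 607 CPM in WT compared with 1490.2, 1574 and 1412 CPM in 35S:nahG (log2 difference 1.09 ± 0.09 SE, edgeR adjusted p = 0.000334), and Solyc07g047850 had 393, 377 and 302 and 808, 819.6 and 753 CPM (log2 difference 1.15 ± 0.10 SE, edgeR adjusted p = 0.000399). In CT both passed on the adjusted p-value alone (log2 fold change 0.53 each). CAB13 (Solyc12g011450) was 2.94-fold higher at 85.5 ± 12.1 against 251 ± 26.7 CPM. Cab-5 (Solyc12g006140) was 6.73-fold higher, at 1.35 ± 0.481 against 9.08 ± 1.66 CPM. Per gene length, in the deposited FPKM (fragments scaled for gene length and depth), Solyc03g005760 averaged 867 and 1850.2 in WT and 35S:nahG LTMH, and Cab-5 1.42 and 9.59. CAB and RBCS genes have near-identical copies, among which the division of reads is uncertain.

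RBCS genes encode the small subunit of Rubisco, the CO2-fixing enzyme. RBCS-1 (Solyc02g063150) had 536, 474 and 413.2 CPM in WT compared with 755, 747 and 762 CPM in 35S:nahG (log2 difference 0.67 ± 0.09 SE, edgeR adjusted p = 0.00237). Without WT LTMH replicate 4 its log2 fold change was 0.58 and it fell just short of 1.5-fold. RBCS-3B (Solyc02g085950) was higher at 3.83 ± 0.690 against 9.39 ± 0.616 CPM, and RBCS-2A (Solyc03g034220), at 1063 ± 103 against 1360.5 ± 23.2 CPM, passed on the adjusted p-value alone (log2 fold change 0.35). Oxygen-evolving complex and electron carrier genes gave the same picture. PSBO (Solyc02g065400) was 1.66-fold higher at 324 ± 38.4 against 539 ± 4.68 CPM, and the plastocyanin gene (Solyc04g082010) 1.65-fold higher at 318 ± 33.3 against 525.5 ± 3.83 CPM. Neither was called in CT.

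Chlorophyll synthesis was represented by a gene described as CobN/magnesium chelatase (Solyc04g015750), the enzyme type that inserts magnesium, and by POR1 (Solyc12g013710), which reduces protochlorophyllide in the light. The former had 96.4, 91.7 and 74.8 CPM in WT compared with 219.7, 214 and 188 CPM in 35S:nahG (log2 difference 1.24 ± 0.10 SE, edgeR adjusted p = 0.000317). POR1 had 37.9 ± 7.07 and 74.5 ± 4.49 CPM (log2 difference 0.97 ± 0.12 SE, edgeR adjusted p = 0.00188). Both were also higher in CT. Of the 10 genes listed for chlorophyll biosynthetic process, 3 were called higher and all 10 passed with a positive sign on the adjusted p-value alone (median 0.48, CT 0.23). In carbon fixation, 4 of 7 were called higher (median 0.67, CT 0.16). Over all tested genes, 4.64% were called higher.

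Fructose-bisphosphate aldolase (FBA) and fructose-1,6-bisphosphatase act in the Calvin cycle and in the path to sucrose. Of 8 tested FBA genes 3 were higher, while 5 lay below 0 and 3 of these were lower on the adjusted p-value alone (median −0.11, CT 0.03). Among those higher was Solyc01g110360 with 50.6, 44.6 and 38.9 CPM in WT compared with 109, 115 and 103 CPM in 35S:nahG (log2 difference 1.29 ± 0.09 SE, edgeR adjusted p = 0.000189). CFBP1 (Solyc10g086730) was higher at 90.7 ± 3.39 against 163 ± 6.23 CPM (log2 difference 0.84 ± 0.05 SE, edgeR adjusted p = 8.16e-05). Neither was called in CT, and both passed the interaction test at 0.97 and 0.69. Phytochrome B (Solyc05g053410), a red light receptor, was 1.599-fold higher at 15.6 ± 0.904 against 24.9 ± 2.64 CPM. Of the 15 genes listed for response to red or far red light 5 were higher (median 0.50, CT 0.09), and of the 10 listed for circadian rhythm 3 (median 0.47, CT 0.27). Amino acid catabolism gave 7 of 18 (median 0.47) and glucan catabolism 2 of 9 (median 0.38). Over all tested genes, 4.64% were called higher and 4.91% lower. The GO lists were drawn by the study from genes differing in these same libraries, which fixed their direction and favoured calls.

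**Figure D4:**
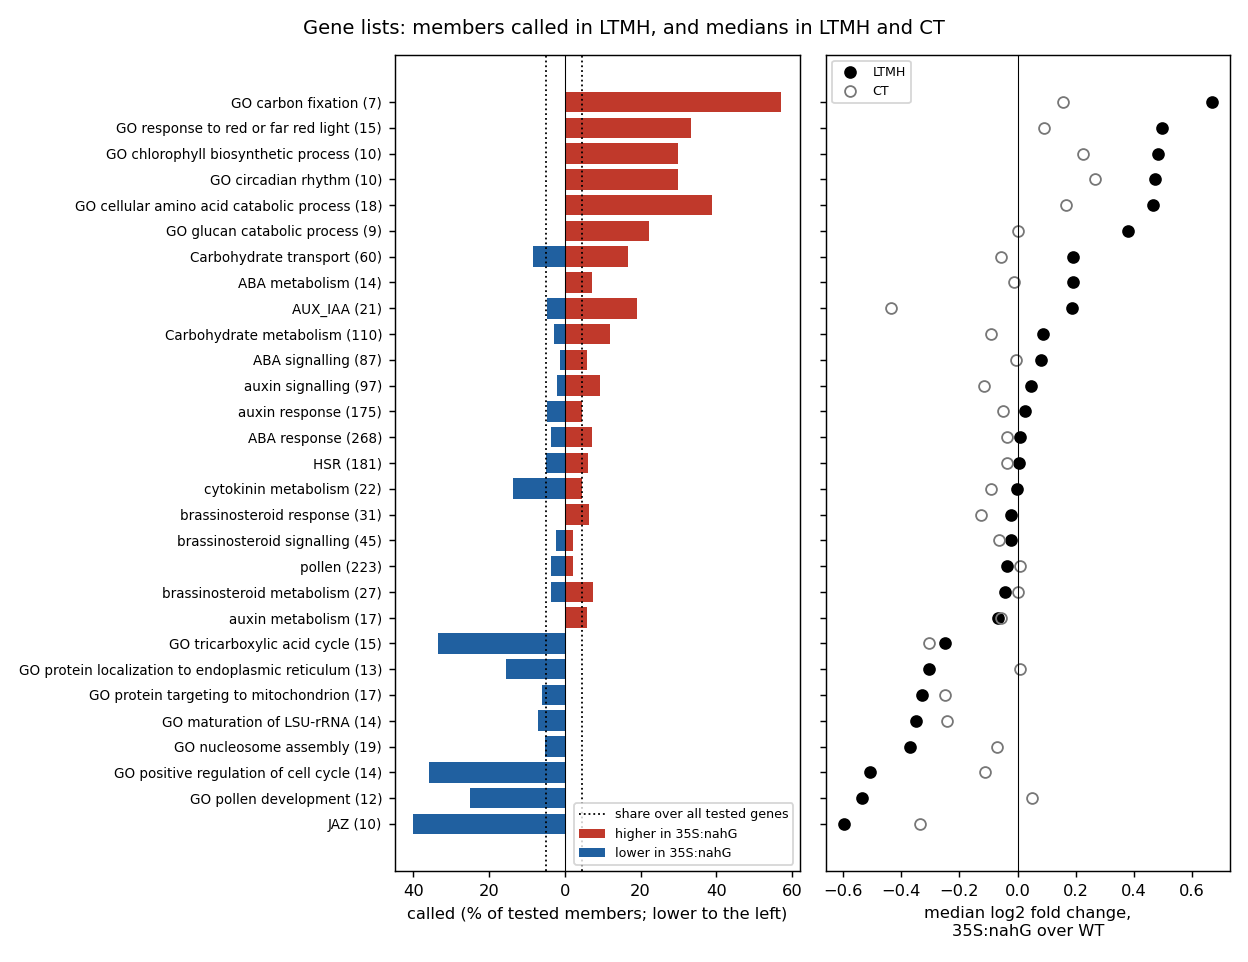
Left, share of the tested members of each of 29 gene lists called higher (to the right) or lower (to the left) in LTMH in percent, with the number tested in brackets and the shares over all tested genes as dotted lines. Right, median log2 fold change of each list in LTMH (filled) and CT (open), where carbon fixation has the highest LTMH median (0.67) and the JAZ list, here with the receptor COI1, the lowest (−0.60).

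Measured in reads rather than in folds, the largest losses in 35S:nahG were in genes without a description. Solyc03g098790 had 5084, 5181 and 7346 CPM in WT compared with 2654, 2864 and 4404 CPM in 35S:nahG (log2 difference −0.83 ± 0.22 SE, edgeR adjusted p = 0.0298), and Solyc07g064600 had 1880.0, 1652 and 2848 and 657, 872 and 1364 CPM (log2 difference −1.14 ± 0.29 SE, edgeR adjusted p = 0.0265). For both, the lowest WT library lay above the highest 35S:nahG library by a small margin. The latter was also not called with all 4 groups in one fit (adjusted p = 0.0595). The former call was lost without WT replicate 3 or 4 or 35S:nahG replicate 2 or 3 (adjusted p from 0.0557 to 0.104) and the latter without WT replicate 4 or 35S:nahG replicate 2 or 3 (adjusted p from 0.0564 to 0.0909).

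Gains of abundant transcripts outside photosynthesis included a catalase gene (Solyc12g094620), which breaks down hydrogen peroxide, at 581, 601 and 589 CPM in WT compared with 1000.0, 989 and 836 CPM in 35S:nahG (log2 difference 0.67 ± 0.08 SE, edgeR adjusted p = 0.00119). Thiamine thiazole synthase (Solyc07g064160), of vitamin B1 synthesis, had 772 ± 35.8 and 1168 ± 3.44 CPM (log2 difference 0.60 ± 0.05 SE, edgeR adjusted p = 0.000496). Without WT LTMH replicate 4 its log2 fold change was 0.56, below 1.5-fold. Neither gene was called in CT, where the log2 fold changes were −0.21 and −0.38, and both interactions were significant (0.88 and 0.98).

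Lists of growth and protein synthesis genes had lower medians in 35S:nahG, with small differences per gene. Of the 14 genes listed for maturation of LSU-rRNA all 14 were lower on the adjusted p-value alone and 1 was called (median −0.35, CT −0.24). Nucleosome assembly had 16 of 19 lower on the adjusted p-value and 1 called (median −0.37, CT −0.07), and protein targeting to mitochondrion 17 of 17 and 1 (median −0.33, CT −0.25). Positive regulation of cell cycle had 5 of 14 called lower (median −0.51, CT −0.11) and the tricarboxylic acid cycle 5 of 15 (median −0.25, CT −0.30). Over all tested genes, 4.91% were called lower. These lists, too, came from genes that differed in these libraries, which favoured such calls.

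In 3 of these lists the member with the largest change lay in a dense window. The histone H4 gene Solyc06g005430, of the core histones that package DNA, had 98.4, 103 and 102 CPM in WT compared with 18.5, 15.9 and 14.9 CPM in 35S:nahG (log2 difference −2.62 ± 0.08 SE, edgeR adjusted p = 8.05e-06), and was nearly as much lower in CT (−2.36). Its window at the start of chromosome 6 held 9 DEGs, and histone H4 has near-identical copies. A cyclin gene (Solyc04g081650) had 5.55, 3.74 and 5.31 CPM in WT and no read in any 35S:nahG library, at least 59.1-fold lower, in a window of chromosome 4 with 13 DEGs. A phosphoenolpyruvate carboxylase gene (Solyc09g015490), of the list for the tricarboxylic acid cycle, had 4.47 ± 0.384 CPM in WT compared with 0.205 ± 0.181 CPM in 35S:nahG and lies in the chromosome 9 stretch, in a window with 8 DEGs. In contrast, CycD3;2 (Solyc01g107730), a D-type cyclin of entry into the cell cycle, was higher at 24.3, 25.6 and 20.9 CPM in WT against 50.2, 77.98 and 91.0 CPM (log2 difference 1.63 ± 0.20 SE, edgeR adjusted p = 0.00168), as in CT (1.47).

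Of the genes of protein folding in the endoplasmic reticulum (ER) named here, 7 were called lower in 35S:nahG in LTMH, while BIP2 was called higher. Most were named for being DEGs here or in the study, so this count is no result about ER genes as a group. Over all tested genes, 4.91% were called lower. The ER chaperones hold and fold proteins on the way to secretion, which is intense in anthers. A gene described as protein disulfide-isomerase (PDI, Solyc06g005940), the enzyme that forms disulfide bonds, had 1204, 1137 and 1198 CPM in WT compared with 434, 492.8 and 528 CPM in 35S:nahG (log2 difference −1.28 ± 0.08 SE, edgeR adjusted p = 8.68e-05). Its entry also lists an AAA domain, and it is the neighbour by number of the SRR1-domain gene above. Hsp90-7 (Solyc04g081570), the ER member of the HSP90 family, had 1144, 1104 and 1160.1 CPM in WT compared with 544, 565 and 588 CPM in 35S:nahG (log2 difference −1.01 ± 0.05 SE, edgeR adjusted p = 5.33e-05). An ER gene of the HSP70/110 type (Solyc07g043560) had 307 ± 40.2 and 158 ± 8.63 CPM (log2 difference −0.96 ± 0.10 SE, edgeR adjusted p = 0.000691). In all 3 genes each WT library lay above each 35S:nahG library. All 3 also lie in dense windows, with 13, 13 and 9 DEGs.

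Outside such windows, the co-chaperones ERDJ3B (Solyc01g079610) and P58IPK (Solyc09g007630), J-domain proteins that work with BiP, were lower at 149 ± 10.4 against 96.1 ± 12.3 CPM (log2 difference −0.64 ± 0.10 SE, edgeR adjusted p = 0.00397) and at 199 ± 32.5 against 119 ± 9.83 CPM (log2 difference −0.75 ± 0.12 SE, edgeR adjusted p = 0.00429). ERDJ3B fell below 1.5-fold without WT LTMH replicate 2 (log2 fold change −0.58) or without 35S:nahG LTMH replicate 2 (−0.53). The ER lumen retaining receptor gene (Solyc06g083270), which returns escaped ER proteins, had 93.2, 93.6 and 93.6 CPM in WT compared with 44.7, 51.9 and 54.7 CPM in 35S:nahG (log2 difference −0.89 ± 0.07 SE, edgeR adjusted p = 0.000291). BIP3 (Solyc01g099660), the heat-inducible form of the HSP70 of the ER, had 143, 144 and 104 CPM in WT compared with 98.2, 51.6 and 81.0 CPM in 35S:nahG (log2 difference −0.76 ± 0.23 SE, edgeR adjusted p = 0.0461), without overlap. Its call was lost without WT replicate 2 or 3 or 35S:nahG replicate 3 or 4 (adjusted p from 0.0705 to 0.136).

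The other BiP genes of the HSR list did not share one direction. BIP2 (Solyc06g052050) was called higher, with 3.41, 3.93 and 3.73 CPM in WT compared with 5.06, 5.88 and 6.82 CPM in 35S:nahG (log2 difference 0.68 ± 0.15 SE, edgeR adjusted p = 0.0138). Its log2 fold change was 0.57, below 1.5-fold, without 35S:nahG LTMH replicate 4. BIP1 (Solyc08g082820) had 798, 688 and 742 CPM in WT and 487, 534 and 571 CPM in 35S:nahG (log2 difference −0.49 ± 0.08 SE, edgeR adjusted p = 0.00515). BIP4 (Solyc03g082920), named after its values were seen, had 725, 604 and 661 CPM in WT and 417, 483 and 518 CPM in 35S:nahG (log2 difference −0.49 ± 0.10 SE, edgeR adjusted p = 0.0105). Neither BIP1 nor BIP4 reached 1.5-fold, so neither was called, although their lines did not overlap.

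In CT none of these genes was called lower. PDI, ERDJ3B, P58IPK and the ER lumen retaining receptor gene were called higher in 35S:nahG in CT (log2 fold changes 0.78, 0.75, 0.82 and 0.97), as was BIP4 (0.95). Hsp90-7, the HSP70/110-type gene, BIP3, BIP1 and BIP2 were not called there (0.42, 0.28, −0.12, 0.57 and 0.17). The difference between the temperatures was significant by edgeR for PDI (−2.07, adjusted p = 0.00024), Hsp90-7 (−1.42, adjusted p = 3.79e-05), the HSP70/110-type gene (−1.25), ERDJ3B (−1.39), P58IPK (−1.57), the receptor gene (−1.86, adjusted p = 0.000177), and for BIP1 (−1.06) and BIP4 (−1.44), though not for BIP3 (−0.64, adjusted p = 0.105) or BIP2 (0.51, adjusted p = 0.0595). In these same CT libraries the summed tapetum markers were higher in 35S:nahG, and their part in the ER genes was not tested. The GO list for protein localization to the ER was taken by the study from genes differing here. It had 2 of 13 called lower (beside 4.91% of all genes) and 12 of 13 lower on the adjusted p-value (median −0.30, CT 0.01).

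The heat stress response (HSR) set had 11 higher and 9 lower of 181 tested genes (11%, beside 9.56% of all genes) and a median of 0.00449. Heat shock proteins (HSPs) keep other proteins soluble and are induced by heat through heat shock transcription factors (HSFs). By family, 3 of 21 tested HSFs were higher and 1 lower (median 0.29), and of 16 small HSPs none was higher and 2 lower (median 0.03). The HSP70 family had 1 of 18 higher and 2 lower (median −0.25), the HSP60 family 1 of 18 higher (median −0.18, with 16 below 0 and 9 of them lower on the adjusted p-value alone), and the HSP90 family 1 of 6 lower (median 0.10). None of the 5 HSP100 genes (median 0.06) or of the 3 Hsp10 genes (median −0.19) was called. In the HSP40 family 6 of 94 were higher and 3 lower (median 0.03).

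Among HSFs, HsfA9 (Solyc07g040680) was higher at 1.33, 2.15 and 1.20 CPM in WT against 4.36, 3.63 and 3.67 CPM (log2 difference 1.31 ± 0.24 SE, edgeR adjusted p = 0.00717), and HsfA6b (Solyc06g053960) at 0.459 ± 0.0552 against 1.53 ± 0.593 CPM (log2 difference 1.74 ± 0.33 SE, edgeR adjusted p = 0.00936). HsfB3a (Solyc04g016000) was lower at 32.5, 25.6 and 20.3 CPM in WT against 13.99, 10.9 and 16.4 CPM (log2 difference −0.93 ± 0.19 SE, edgeR adjusted p = 0.013), while in CT it was higher (0.67, interaction −1.60, edgeR adjusted p = 0.00606). The DnaJ-A gene Solyc05g055160, an abundant HSP40, was higher at 499, 483 and 463 CPM in WT against 867, 889.8 and 847 CPM (log2 difference 0.85 ± 0.05 SE, edgeR adjusted p = 9.51e-05). Both small HSPs called, Hsp17.7A-CI (Solyc09g015020) and Hsp15.2-CI (Solyc09g015000), had at most 3 reads in each 35S:nahG library. Against 2.21 ± 0.122 and 1.47 ± 0.266 CPM in WT they were at least 26.8-fold and at least 17.8-fold lower, and the DnaJ-C gene Solyc09g018960 was 116-fold lower. All 3 lie in the chromosome 9 stretch, with 9, 9 and 12 DEGs in their windows, and were lower in CT too (log2 fold changes −7.47, −6.18 and −7.36).

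Of 110 tested sugar metabolism genes 13 were higher and 3 lower (14.5%, beside 9.56% of all genes, 4.64% higher and 4.91% lower), with a median of 0.09 (CT −0.09). Invertases split sucrose, the sugar that pollen receives from the plant. A cell wall invertase of the LIN5b type (Solyc10g085650) was higher in LTMH at 6.58, 8.29 and 8.48 CPM in WT against 28.2, 14.4 and 14.5 CPM (log2 difference 1.29 ± 0.27 SE, edgeR adjusted p = 0.0133), whereas in CT it was lower, at 8.76 ± 3.49 against 1.32 ± 0.496 CPM (interaction 4.01, edgeR adjusted p = 0.00024). Vacuolar invertase LIN9 (Solyc08g079080) was lower at 6.52, 5.72 and 4.49 CPM in WT against 1.32, 0.111 and 0.430 CPM (log2 difference −3.14 ± 0.58 SE, edgeR adjusted p = 0.00812), as in CT (−2.59). Of the invertase inhibitors, CIF1 (Solyc12g099200) was higher at 9.039 ± 1.71 against 20.9 ± 7.25 CPM (log2 difference 1.21 ± 0.25 SE, edgeR adjusted p = 0.012). Its neighbour VIF (Solyc12g099190) was lower at 12.9, 8.75 and 8.86 CPM in WT against 3.11, 1.52 and 1.69 CPM (log2 difference −2.26 ± 0.29 SE, edgeR adjusted p = 0.00192). BAM1 (Solyc09g091030), a beta-amylase that breaks down starch, was 2.03-fold higher (28.9 ± 1.997 against 58.8 ± 10.8 CPM) and was not called in CT (interaction 1.02, edgeR adjusted p = 0.0015). SPSA2 (Solyc08g042000), of sucrose synthesis, was 1.71-fold higher (5.15 ± 0.305 against 8.81 ± 0.279 CPM).

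Sugar carriers moved in both directions. The list had 10 higher and 5 lower of 60 tested (25%, beside 9.56% of all genes, 4.64% higher and 4.91% lower), with a median of 0.19 (CT −0.06). The STP family of monosaccharide importers had 4 of 12 higher (33.3%) and the SFP family of sugar facilitator proteins 3 of 10 (30%), with none lower in either. The SWEET family, which exports sugars, had 1 of 18 higher and 5 lower (33.3%, median −0.11, log2 fold changes from −1.93 to 3.78). SlSTP6 (Solyc08g080300) had 0.121, 0.0566 and 1.06 CPM in WT compared with 7.97, 7.46 and 5.62 CPM in 35S:nahG (log2 difference 4.08 ± 0.67 SE, edgeR adjusted p = 0.00517), and leaving out WT LTMH replicate 4 raised the log2 fold change to 6.27. It was not called in CT, and the interaction was 6.15 (edgeR adjusted p = 0.00906). SlSTP9 (Solyc01g008240) was 1.52-fold higher at 19.1, 19.6 and 20.6 CPM in WT against 29.98, 31.0 and 29.5 CPM (log2 difference 0.61 ± 0.05 SE, edgeR adjusted p = 0.000386), and the inositol transporter SlINT4 (Solyc11g012450) 1.93-fold higher (5.40 ± 0.358 against 10.4 ± 1.77 CPM). The sucrose transporter SlSUT1 (Solyc11g017010) was highest in a single 35S:nahG library, with 17.89, 16.9 and 15.9 CPM in WT compared with 69.3, 28.8 and 25.0 CPM in 35S:nahG (log2 difference 1.28 ± 0.36 SE, edgeR adjusted p = 0.0381). Without 35S:nahG LTMH replicate 2 its log2 fold change was 0.67, and the call was lost without WT replicate 2, 3 or 4 (adjusted p from 0.0837 to 0.107).

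Of the 5 lower SWEET genes, SlNEC1 (Solyc09g074530) had 104, 88.7 and 115 CPM in WT against 28.7, 28.2 and 24.2 CPM in 35S:nahG (log2 difference −1.93 ± 0.11 SE, edgeR adjusted p = 6.04e-05). SlSWEET7a (Solyc08g082770) had 147, 154 and 147 CPM in WT compared with 101, 92.7 and 93.0 CPM in 35S:nahG (log2 difference −0.65 ± 0.05 SE, edgeR adjusted p = 0.00025), and SlSWEET12c (Solyc05g024260) 132, 83.6 and 77.2 and 41.8, 46.6 and 53.7 CPM (log2 difference −1.04 ± 0.20 SE, edgeR adjusted p = 0.00913). In all 3 the lines stood apart. SlNEC1 and SlSWEET7a were lower by more in CT (log2 fold changes −4.61 and −1.45, interactions 2.69 and 0.80), while SlSWEET12c was not called there (−0.08, interaction −0.97, edgeR adjusted p = 0.0114).

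JAZ proteins repress jasmonate (JA) responses and are themselves induced by JA. Of 9 tested JAZ genes none was higher and 4 were lower (44.4%, beside 9.56% of all genes, median −0.66, CT −0.36). All 9 lay below 0, and 6 were lower on the adjusted p-value alone. JAZ4 (Solyc12g049400) had 70.3, 36.9 and 77.3 CPM in WT compared with 25.3, 26.5 and 34.1 CPM in 35S:nahG (log2 difference −1.11 ± 0.26 SE, edgeR adjusted p = 0.0195). JAZ3 (Solyc03g122190) was lower at 64.3 ± 20.4 against 35.5 ± 1.81 CPM, JAZ11 (Solyc08g036660) at 5.19 ± 4.03 against 0.712 ± 0.253 CPM with overlapping lines, and JAZ13 (Solyc01g103600) at 1.84 ± 0.173 against 1.17 ± 0.106 CPM. WT LTMH replicate 3 was the lowest WT library for JAZ3, JAZ4 and JAZ11. All 4 calls were lost when certain single libraries were left out, which also leaves fewer libraries to test with. Their log2 fold changes stayed negative throughout. JAZ4 was lost without WT replicate 2 or 35S:nahG replicate 2 or 3 (adjusted p from 0.0565 to 0.0711), JAZ3 without WT replicate 2 or 4 or 35S:nahG replicate 2, 3 or 4 (adjusted p from 0.0634 to 0.083), JAZ11 without WT replicate 2 or 4 or 35S:nahG replicate 2, 3 or 4 (adjusted p from 0.0771 to 0.106), and JAZ13 without WT replicate 2 or 3 or 35S:nahG replicate 2, 3 or 4 (adjusted p from 0.0665 to 0.113). JAZ13 was also not called by DESeq2 (adjusted p = 0.0791) or without the filter on low counts (0.0509). JAZ4 was called lower in CT as well (log2 fold change −1.44), while JAZ3, JAZ11 and JAZ13 were not called there (−0.36, −2.13 and 0.49). The interaction did not pass for JAZ4, JAZ3 or JAZ11 (edgeR adjusted p = 0.506, 0.189 and 0.969). It passed for JAZ13 (−1.15, edgeR adjusted p = 0.011).

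AUX/IAA proteins repress auxin responses and are induced by auxin. Of 18 tested, 4 were higher and 1 lower in LTMH (27.8%, beside 9.56% of all genes, median 0.18). In CT none was higher and 7 were lower (median −0.51), where 16.6% of all genes were called. In 10 of the 18 the line difference was more positive in LTMH by the interaction test, which 18.3% of all genes passed in either direction. IAA16 (Solyc01g097290) had 15.75, 16.3 and 14.6 CPM in WT compared with 23.3, 24.6 and 27.8 CPM in 35S:nahG (log2 difference 0.69 ± 0.08 SE, edgeR adjusted p = 0.00132), with an interaction of 1.00 (edgeR adjusted p = 0.000385). IAA13 (Solyc09g090910) was higher at 12.1, 13.1 and 13.8 CPM in WT against 25.2, 18.9 and 22.9 CPM (log2 difference 0.78 ± 0.11 SE, edgeR adjusted p = 0.00291) and lower in CT (−0.94, interaction 1.72, edgeR adjusted p = 0.00572). With all 4 groups in one fit the adjusted p-value of IAA13 in LTMH was 0.0524. IAA14 (Solyc09g083290), at 4.11 ± 0.880 against 6.74 ± 1.11 CPM, was no longer called without WT replicate 2 or 4 or 35S:nahG replicate 2 or 4 (adjusted p from 0.0778 to 0.0969). IAA26 (Solyc03g121060), with under 1 CPM in both lines, was the lower member (log2 difference −1.31 ± 0.27 SE, edgeR adjusted p = 0.0122).

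A GH3.1-type gene (Solyc02g092820), whose enzyme family joins auxin to amino acids and is induced by auxin, gave the same reversal as IAA13. It was higher in LTMH at 79.3, 97.3 and 83.001 CPM in WT against 155, 129.9 and 170.2 CPM (log2 difference 0.81 ± 0.11 SE, edgeR adjusted p = 0.00266), and lower in CT at 103 ± 40.4 against 53.2 ± 15.9 CPM (interaction 1.76, edgeR adjusted p = 0.00656). With all 4 groups in one fit its adjusted p-value in LTMH was 0.0585. An ARF6-type auxin response factor gene (Solyc07g043620) had 41.3, 38.8 and 38.9 CPM in WT compared with 80.7, 81.4 and 84.9 CPM in 35S:nahG (log2 difference 1.05 ± 0.05 SE, edgeR adjusted p = 2.2e-05), nearly as in CT (0.84), in a window with 9 DEGs. Auxin signalling had 9 higher and 2 lower of 97 (median 0.05), auxin response 8 and 8 of 175 (0.03) and auxin metabolism 1 and 0 of 17 (−0.07). These were 11.3%, 9.14% and 5.88% of the members tested, beside 9.56% of all genes.

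For ABA, brassinosteroids and cytokinin, list medians ranged from −0.04 to 0.19. ABA response had 19 higher and 10 lower of 268 tested (10.8%, beside 9.56% of all genes, median 0.01), ABA signalling 5 and 1 of 87 (6.9%, median 0.08) and ABA metabolism 1 and 0 of 14 (median 0.19). In the ABA response list, a MYB108-like transcription factor gene (Solyc05g053330) was lower at 21.51, 23.7 and 16.3 CPM in WT against 10.1, 7.60 and 10.8 CPM (log2 difference −1.11 ± 0.17 SE, edgeR adjusted p = 0.0039), and by far more in CT (−5.11, interaction 4.00, edgeR adjusted p = 0.00164). DETOXIFICATION 41 (Solyc12g006360), of a family of efflux carriers, was lower in LTMH at 5.63 ± 1.04 against 2.59 ± 0.254 CPM (log2 difference −1.12 ± 0.17 SE, edgeR adjusted p = 0.0041) and higher in CT at 2.13 ± 0.504 against 12.0 ± 3.13 CPM (interaction −3.61, edgeR adjusted p = 3.96e-05).

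Brassinosteroid lists had 2 higher and 1 lower of 27 for metabolism, 1 and 1 of 45 for signalling and 2 and 0 of 31 for response (medians −0.04, −0.02 and −0.02). These were 11.1%, 4.44% and 6.45% of the members tested, beside 9.56% of all genes. CPD (Solyc06g051750), a cytochrome P450 of brassinosteroid synthesis, was higher at 10.8, 13.2 and 13.3 CPM in WT against 25.5, 20.2 and 20.5 CPM (log2 difference 0.83 ± 0.12 SE, edgeR adjusted p = 0.00305), as in CT (0.62). A BZR2-like gene (Solyc10g076390), of the transcription factors at the end of brassinosteroid signalling, was lower at 8.90, 10.9 and 10.97 CPM in WT against 4.00, 3.99 and 3.33 CPM (log2 difference −1.44 ± 0.13 SE, edgeR adjusted p = 0.000465). Cytokinin metabolism had 1 higher and 3 lower of 22 (median −0.00293). A LOG gene on chromosome 4 (Solyc04g081290), whose enzyme frees active cytokinin, was lower at 22.7, 25.67 and 22.4 CPM in WT against 13.4, 12.6 and 11.2 CPM (log2 difference −0.93 ± 0.09 SE, edgeR adjusted p = 0.000552), and was so in CT (−1.34).

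The pollen development set of the study had 5 higher and 8 lower of 223 tested genes (5.83%, beside 9.56% of all genes), with a median of −0.04. UTR3 (Solyc05g007150), a carrier of nucleotide sugars into the ER, was lower at 315, 298 and 258 CPM in WT against 167, 164 and 188 CPM in 35S:nahG (log2 difference −0.75 ± 0.09 SE, edgeR adjusted p = 0.00122). Of the 11 tested tapetum markers, 3 were called lower, namely the transcription factor TDF1 (Solyc03g059200), CYP704B1 (Solyc01g010900), of sporopollenin synthesis, and WBC27 (Solyc07g065780), which exports pollen wall precursors. Their WT libraries were uneven, as were the summed tapetum markers, with 846, 958 and 359 CPM in WT LTMH replicates 2, 3 and 4. CYP704B1 had 22.1, 76.5 and 1.91 CPM in WT compared with 2.73, 2.58 and 3.38 CPM in 35S:nahG, with overlapping lines, and WBC27 had 2.99, 19.0 and 0.469 and 0.208, 0.222 and 0.172 CPM. TDF1 had 0.181, 0.877 and 0.147 CPM in WT and at most 2 reads in a 35S:nahG library, at least 4.88-fold lower. The calls were lost for CYP704B1 without WT replicate 2 or 3 or 35S:nahG replicate 2, 3 or 4 (adjusted p from 0.0677 to 0.145), for TDF1 without WT replicate 3 or 35S:nahG replicate 2, 3 or 4 (adjusted p from 0.077 to 0.126) and for WBC27 without 35S:nahG replicate 2, 3 or 4 (adjusted p from 0.0799 to 0.0912). WT LTMH replicate 3 had the highest level of all 3 genes. Leaving it out gave log2 fold changes of −2.05, −2.93 and −3.08, beside −3.54, −4.23 and −5.20 with it. Without 35S:nahG LTMH replicate 4 that of TDF1 was −6.86, and with all 4 groups in one fit its adjusted p-value was 0.0561. In CT, 9 of the 11 tapetum markers were called higher, CYP704B1 and WBC27 among them, while TDF1 was not called. The GO list for pollen development, taken from genes differing here and holding TDF1, had 3 of 12 called lower (beside 4.91% of all genes, median −0.53, CT 0.05).

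Set beside CT, the difference between the lines in LTMH was in part the same and in part not. In CT, 3500 genes (16.6% of those tested) were DEGs, 1636 higher (7.75%) and 1864 lower (8.83%) in 35S:nahG. Of the 2016 DEGs in LTMH, 887 (44.0%) differed in the same direction in CT, 369 higher and 518 lower. A further 1020 (50.6%) were not called in CT, and 109 (5.41%) were called in the opposite direction. The number of libraries differs between the temperatures, so a call at one of them and not at the other does not show that the lines differed more there. By the interaction of line and temperature, 3857 genes (18.3%) had a line difference that changed with temperature, in 2152 towards higher and in 1705 towards lower expression of 35S:nahG in LTMH. Of the 1020 DEGs called in LTMH and not in CT, 404 passed this test, and of the 887 with the same direction, 148.

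**Figure D5:**
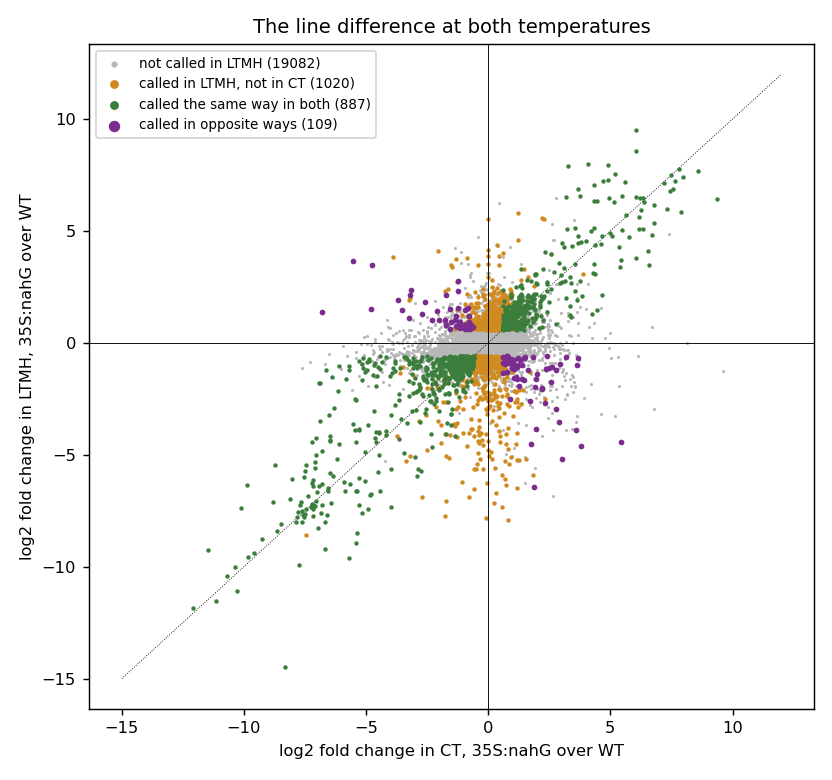
Log2 fold change of 35S:nahG over WT in LTMH (vertical axis) against that in CT (horizontal axis) for each of the 21098 tested genes, with the diagonal of equal change dotted. The 887 genes called the same way lie in the lower left and upper right, the 1020 called in LTMH and not in CT mostly near the vertical axis, and the 109 called in opposite ways in the upper left and lower right.

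The 109 genes with opposite calls all passed the interaction test, 45 being higher in LTMH and lower in CT (medians 1.02 and −1.32) and 64 lower in LTMH and higher in CT (medians −1.11 and 1.38). Besides 4 of the ER genes, HsfB3a, DETOXIFICATION 41, the LIN5b-type invertase, IAA13, the GH3.1-type gene, CYP704B1 and WBC27 above, they included a gene with an FMN reductase domain (Solyc03g034140). It had 0.483, 0.849 and 1.35 CPM in WT LTMH and 5.68, 6.79 and 5.65 CPM in 35S:nahG LTMH (log2 difference 2.75 ± 0.31 SE, edgeR adjusted p = 0.00105), against 0.449 ± 0.124 and 0.185 ± 0.0940 CPM in CT (interaction 4.00, edgeR adjusted p = 0.000394). A cytochrome P450 gene on chromosome 7 (Solyc07g055560) was higher in LTMH at 2.41, 2.72 and 4.52 CPM in WT against 19.5, 14.8 and 13.2 CPM (log2 difference 2.30 ± 0.25 SE, edgeR adjusted p = 0.000977) and lower in CT (−1.24, interaction 3.54, edgeR adjusted p = 0.000729).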

How the data were processed

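Counts were used as deposited. The authors removed adapter and low-quality reads from libraries made with a poly-A kit that does not mark strand, aligned the rest to the tomato genome with HISAT2 (2.0.5) and counted reads per gene with featureCounts (1.5.0-p3), each library on its own. Reads of overlapping or antisense neighbours therefore cannot be told apart. FPKM values deposited by the authors were used only to set levels of genes beside each other. Genes were kept by filterByExpr of edgeR (4.0.16 in R 4.3.3, minimum count 10) across all 14 libraries of both lines. Each temperature was fitted on its own libraries with TMM scaling and the quasi-likelihood test, taken two-sided, and p-values were adjusted by Benjamini-Hochberg across the 21098 genes. DEGs changed 1.5-fold or more with an adjusted p-value under 0.05. The interaction of line and temperature was tested over all 14 libraries at an adjusted p-value under 0.05. A fold against a line with at most 3 reads in every library was computed against 3 reads per library as a lower bound, which covers counting error only. At the depths given above, 3 reads equal 0.0779 to 0.0905 CPM. The fit was tested on simulated data first. Alternatives were DESeq2 (1.42.0), other filters, scalings and thresholds, all 4 groups in one fit, a replicate block, and leaving out each library.

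Gene sets were the study's lists, JAZ and AUX/IAA genes, and its GO terms. Members and lists were chosen with earlier results of these data known. Named genes were taken from the largest fold changes per list, the largest folds and read changes in the table, markers, and genes the study names or describes, with some left out and BIP4 added after its values were seen. The study's own fold changes and p-values were not used.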

Additional observations from a re-analysis of the deposited data

Results flagged for a closer look

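For 58 of the 94 named genes the line difference in LTMH was not that in CT by the interaction test of edgeR, which 18.3% of all tested genes passed. Of the 94, 91 were DEGs in LTMH, and many were named for a large difference there. This choice favours passing the interaction test, so the count of 58 is no result about these genes as a group. The value given here is the log2 fold change in LTMH minus that in CT. Among genes called higher in LTMH, it was SlSTP6 (6.15), sesquiterpene synthase (4.57), the LIN5b-type invertase (4.01), the FMN reductase-domain gene (4.00), the cytochrome P450 gene (3.54), MPK3 (2.62), the LEA5-type gene on chromosome 6 (2.36), the GH3.1-type gene (1.76), IAA13 (1.72), CIF1 (1.63), purple acid phosphatase (1.42), SlSUT1 (1.26), BAM1 (1.02), SlINT4 (1.01) and IAA16 (1.00). Values below 1 in this group were found for Cab-5 (0.99), IAA14 (0.99), thiamine thiazole synthase (0.98), the FBA gene (0.97), catalase (0.88), CAB13 (0.81), CFBP1 (0.69), the CAB gene on chromosome 7 (0.62), plastocyanin (0.58), the CAB gene on chromosome 3 (0.57), the magnesium chelatase-type gene (0.55), DnaJ-A (0.55), RBCS-1 (0.51), SlSTP9 (0.49) and PSBO (0.48). Among genes called lower in LTMH and less so than in CT, it was MYB108-like (4.00), the yippee-like gene (3.50), SlNEC1 (2.69), the ROC5-like gene (2.21), the LEA5-type gene on chromosome 9 (2.07), the ADH_N-domain gene (1.49), chalcone synthase 1 (1.36) and SlSWEET7a (0.80). Genes lower in LTMH and higher or less low in CT had negative values. These were WBC27 (−8.23), CYP704B1 (−6.44), NIM1-INTERACTING 2-like (−5.89), DETOXIFICATION 41 (−3.61), EIX2 (−3.01) and PDI (−2.07), and, above −2, ER lumen retaining receptor (−1.86), WRKY44 (−1.72), HsfB3a (−1.60), P58IPK (−1.57), Hsp90-7 (−1.42), ERDJ3B (−1.39), the HSP70/110-type gene (−1.25), JAZ13 (−1.15), NIMIN2b (−1.05), EIX1 (−1.02), SlSWEET12c (−0.97) and UTR3 (−0.57). BIP4 (−1.44) and BIP1 (−1.06), not called in LTMH, also had negative values.

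Single CT libraries stood far from the other 3 of their group in 8 of 188 groups of 4 looked at. Chance alone gives about 1 in 20, a rate that does not hold where the other 3 are equal. The gap to the nearest library, as a share of the group's range, was 1.00 for the yippee-like gene, Hsp17.7A-CI and JAZ11 (each highest in 35S:nahG CT replicate 4, the other 3 being equal), 0.990 for NIMIN2b (35S:nahG CT replicate 4 lowest) and 0.890 for MPK3 (35S:nahG CT replicate 2 highest). The yippee-like gene, Hsp17.7A-CI and JAZ11 were close to absent in 35S:nahG CT, with means of 0.0151, 0.00757 and 0.00757 CPM. Their shares of 1.00 thus rest on very few reads. For Solyc07g064600, CPD and CYP704B1 WT CT replicate 3 was highest, with shares of 0.842, 0.846 and 0.835. These libraries enter only the CT values and the interaction, and not the difference in LTMH.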

How the results depend on the processing

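The numbers of DEGs moved mostly with the fold change threshold. On the adjusted p-value alone, 2594 genes were higher and 2785 lower in LTMH, and 3551 and 3935 in CT. With at least 2-fold, they were 500 and 636 in LTMH, and 877 and 1172 in CT. DESeq2 gave 996 higher and 1060 lower in LTMH (928 and 986 of them shared with the edgeR calls), the fit without a filter 1006 and 1041, the filter over the 6 libraries 952 and 970, RLE scaling 982 and 1032, and all 4 groups in one fit 985 and 873. Leaving out each library gave 766 (without WT replicate 3) to 938 higher and 744 (without 35S:nahG replicate 3) to 1016 lower in LTMH, 1391 to 1875 and 1616 to 1895 in CT, and 1571 to 2346 and 1219 to 1904 for the interaction. The all-gene median stayed between −0.00555 and 0.00196.

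Same-numbered libraries of the lines did not deviate together (r of −0.214, −0.0133 and −0.0950 for replicates 2, 3 and 4), so the numbers were not taken as pairs. With the replicate block, 762 genes were higher and 810 lower in LTMH, 1677 and 1791 in CT, and 1958 and 1637 by the interaction. Of the 94 named genes, 88 kept their side of the thresholds under the block, 93 by DESeq2, and 83 to 88 when a library was left out, and none changed direction under any of these. The 6 not called under the block were JAZ11, JAZ13, IAA14, BIP3, CYP704B1 and TDF1 (adjusted p-values from 0.0664 to 0.144 by edgeR). The cause of the lost calls was not tested. Medians of lists near 0 (HSR, cytokinin metabolism, ABA, auxin and brassinosteroid response, brassinosteroid signalling) changed sign under some settings, so that no direction can be read from them. Keyword lists and promoter motifs were not run, since descriptions and promoters did not cover most genes. With 3 libraries per line, differences under 1.5-fold and genes with few reads are the least certain.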
